A study of Mus musculus with 21 samples.

Results

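Experiment 2 of the hypoxia arm compared mouse melanoma cells kept at 1% oxygen in a flow-regulated incubator with cells kept at 21% oxygen. Its members are the 5 arrays whose titles carry that experiment number and an oxygen level, of 21 arrays in the series: 2 controls at 21% oxygen and 3 arrays at 1% oxygen for 24 h. The cells were B16-F10, a pigmented line of 1 melanoma of the C57BL/6J mouse, grown as a culture of tumour cells alone in RPMI medium with serum, with no transgene or added agent named in the labels. The time that controls spent at 21% oxygen is not given in the labels. RNA was read on Affymetrix Murine Genome U74Av2 arrays, and every probe set with a single gene symbol was used, 10833 of 12488, which stood for 8251 genes. The other hypoxia sets, experiment 1 in the same kind of incubator and a set in a sealed Billups-Rothenberg chamber, each with 2 controls and 3 arrays at 1% oxygen, serve here as comparisons. The labels call the arrays of a group biological replicas without saying whether they came from separate cultures, so a p-value covers only how far these arrays varied, which may be technical.

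Cells sense oxygen through prolyl hydroxylases, which mark the alpha subunits of hypoxia-inducible factor (HIF) for degradation by the VHL ubiquitin ligase as long as oxygen is present. When oxygen falls, the alpha subunit pairs with ARNT, binds a short core motif in DNA and raises transcription of genes for glucose uptake, glycolysis, blood vessel growth and mitophagy. Because the alpha subunits are controlled as proteins, their mRNA is a poor reading of the pathway, whereas the target genes and the hydroxylases that HIF itself induces are the usual readout. In melanoma cells, low oxygen is also known to slow the cell cycle and to alter the pigment programme under MITF.

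Values are log2 units of the robust multi-array average (RMA), in which 1 unit is a doubling of signal; a change is the mean at 1% oxygen minus the mean at 21% oxygen, and ± marks its standard error in a limma model. A gene was called at a Benjamini-Hochberg adjusted p under 0.05 over all 8251 genes. Array medians lay between 5.47 and 5.52. Arrays of a group correlated at 0.994 (controls) and at 0.995 to 0.997 (1% oxygen) across genes, which are not independent replicates, against 0.978 to 0.984 between groups. The Actb 3′ minus 5′ signal, a measure of RNA quality, was 0.22 on both controls and 0.43, 0.25 and 0.24 at 1% oxygen; the same difference for Gapdh was 0.07 and 0.26 against 0.17, 0.21 and 0.17. RMA gives no detection call, and RNA was taken from bulk cultures, so a change in the number of cells in a given state cannot be told apart from a change of RNA within each cell.

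Promoters of a few genes are shown because the data bear on genes that moved together. They are from RefSeq on build GRCm38.p6, cover the 170 bases before the annotated start and are written 5′ to 3′ along the gene. In the first 3, of genes that were higher at 1% oxygen, capitals mark the HIF core ACGTG or GCGTG on either strand, so that a match on the opposite strand reads CACGT or CACGC; in Bnip3, CACGTG holds a match on each strand. In the next 3, of replication genes that were lower, capitals mark an E2F motif, TTCCCGC or TTGGCGC or TTCGCGC on either strand, E2F being the factor family that drives genes of the entry into S phase. In Mcm5 a pair of these overlap. HIF cores are not marked in these 3, although Cdc6 and Rfc3 each hold CACGC. Every promoter shown holds the motif marked in it, and shares over groups of genes are given below.
Bnip3 (chr7:138909507-138909676, minus strand): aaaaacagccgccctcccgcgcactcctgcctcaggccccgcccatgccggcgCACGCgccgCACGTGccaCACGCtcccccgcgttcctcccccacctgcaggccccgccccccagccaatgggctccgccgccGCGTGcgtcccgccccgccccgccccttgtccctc
Slc2a1 (chr4:119108575-119108744, plus strand): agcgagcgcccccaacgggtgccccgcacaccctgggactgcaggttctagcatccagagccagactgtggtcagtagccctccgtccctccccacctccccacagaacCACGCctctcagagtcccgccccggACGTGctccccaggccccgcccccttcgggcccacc
P4ha2 (chr11:54100754-54100923, plus strand): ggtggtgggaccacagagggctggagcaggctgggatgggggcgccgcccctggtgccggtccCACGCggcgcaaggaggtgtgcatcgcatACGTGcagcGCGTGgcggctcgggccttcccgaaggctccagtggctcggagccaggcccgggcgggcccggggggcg
Cdc6 (chr11:98907981-98908150, plus strand): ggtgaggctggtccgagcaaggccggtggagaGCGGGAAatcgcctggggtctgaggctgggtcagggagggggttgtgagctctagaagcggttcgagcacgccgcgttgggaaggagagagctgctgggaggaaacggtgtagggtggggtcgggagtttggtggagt
Mcm5 (chr8:75109339-75109508, plus strand): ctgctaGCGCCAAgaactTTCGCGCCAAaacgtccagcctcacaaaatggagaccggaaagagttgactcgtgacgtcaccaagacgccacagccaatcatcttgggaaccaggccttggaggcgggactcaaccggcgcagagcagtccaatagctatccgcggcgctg
Rfc3 (chr5:151651209-151651378, minus strand): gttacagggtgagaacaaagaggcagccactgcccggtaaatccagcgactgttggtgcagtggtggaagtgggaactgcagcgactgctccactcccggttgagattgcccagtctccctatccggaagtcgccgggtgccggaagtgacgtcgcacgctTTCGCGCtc

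Over the RefSeq window from 250 bases before to 50 after the start, 6576 of the 8251 genes matched an entry, with 8412 promoters. The HIF core was present in 57.7% of these promoters, in 64.1% of those of genes called higher, in 68.3% of those of genes called lower and in 79.5% of those of genes called higher by at least 2 log2 units (31 of 39). Genes called lower by at least 1 unit had the core in 76.3% of promoters (29 of 38), and genes called higher by at least 1 unit in 67.9%. The core was present in 82.1% (23 of 28) of the promoters of the HIF targets listed below, a list written with earlier results of these data known. An E2F motif was present in 12.7% of the promoters of tested genes, 11.2% for genes called higher, 22.4% for genes called lower and 53.7% (29 of 54) for the replication list. Median GC content was 59.7% over tested genes, 65.3% over the HIF targets and 60.3% over the replication list; its part in these shares was not tested. A match describes the letters and does not show binding.

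Of 8251 genes, 1266 (15.3%) were called in experiment 2, 623 higher (7.55%) and 643 lower (7.79%) at 1% oxygen. The higher side reached further: 129 genes were called higher by at least 1 log2 unit and 36 by at least 2, whereas 38 were called lower by at least 1. The median change among called genes was 0.63 on the higher and -0.55 on the lower side, and the smallest changes called were 0.29 and -0.29. In 1263 of the called genes all 3 arrays at 1% oxygen lay on 1 side of both controls; over all genes, 19.4% had every hypoxia array above and 25.7% below both controls. The 3 called genes whose groups overlapped were Mocs2, Uso1 and Xbp1, with adjusted p of 0.043, 0.0496 and 0.018, which reached 0.50, 0.78 and 0.21 without a single array (control array 2, control array 1 and control array 2). Leaving out control array 1 lowered the count to 723, and the other arrays left out in turn gave 968 to 1091. Of the 1266, 573 (299 higher, 274 lower) kept their call whichever of the 5 arrays was left out; genes named below did so unless a value without an array is given.

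**Figure D1:**
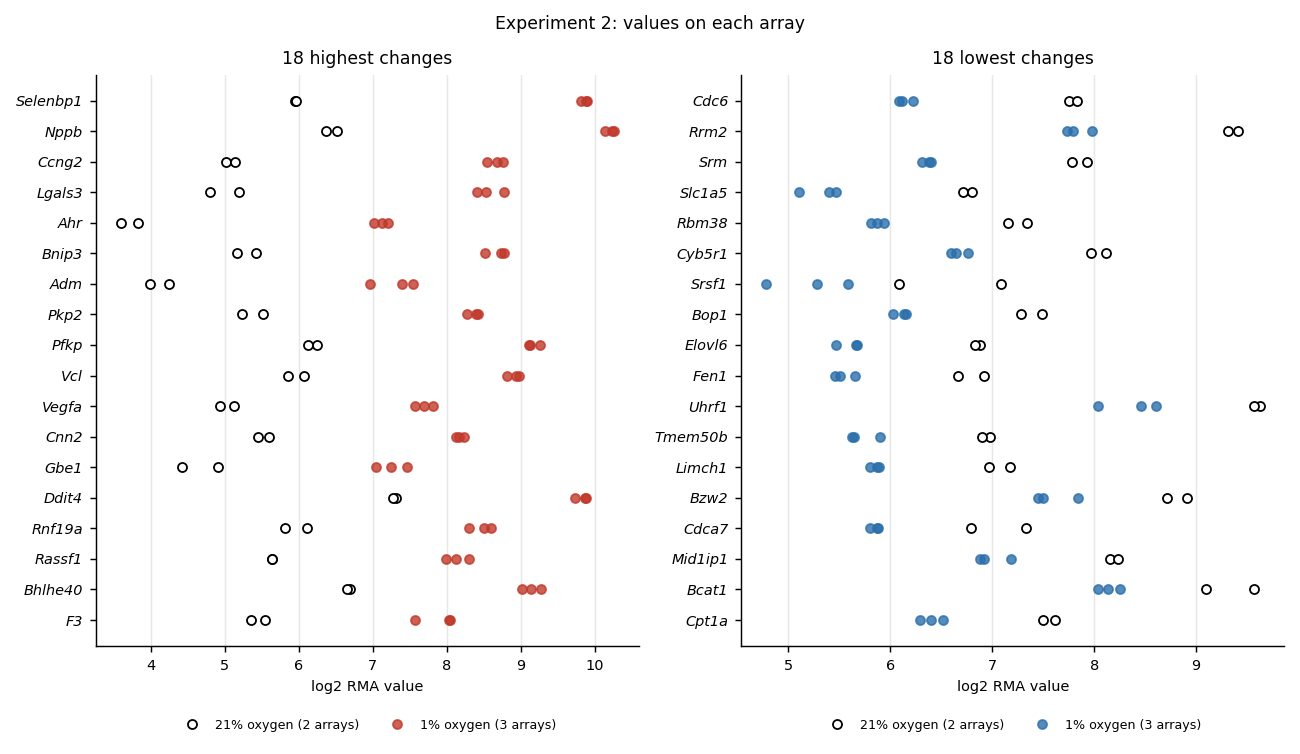
Values on each of the 5 arrays of experiment 2 for the 18 genes with the highest (left) and the 18 with the lowest (right) change among genes called without overlap; the x axis is the log2 RMA value, open points are the 2 controls at 21% oxygen and filled points the 3 arrays at 1% oxygen. Selenbp1 moved from 5.94 and 5.97 to between 9.81 and 9.90, and Cdc6 from 7.75 and 7.83 to between 6.08 and 6.23.

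The highest changes joined known HIF targets with genes of other roles. Selenbp1, a selenium-binding protein that oxidises methanethiol, read 5.94 and 5.97 in the controls and 9.90, 9.81 and 9.88 at 1% oxygen, a change of 3.91 ± 0.16 (15-fold, adjusted p = 3.6e-13). Nppb, which encodes B-type natriuretic peptide, went from 6.52 and 6.37 to 10.23, 10.14 and 10.27, a change of 3.77 ± 0.15. Ccng2, a cyclin that restrains the cell cycle, went from 5.02 and 5.14 to 8.54, 8.68 and 8.77 (3.58 ± 0.15). For each of these the gap between the groups was many times the spread within either. Lgals3, the carbohydrate-binding protein galectin-3, stood at 4.81 and 5.20 in the controls and at 8.53, 8.40 and 8.77 in the hypoxia arrays (3.57 ± 0.20). Ahr, the aryl hydrocarbon receptor, which shares the partner ARNT with HIF, stood at 3.59 and 3.83 and then at 7.12, 7.20 and 7.02 (3.41 ± 0.18). Its target Tiparp, a mono-ADP-ribosyltransferase that limits the receptor, rose by 2.13 ± 0.17. Of 13 measured genes of the receptor and its targets, 4 were higher (30.8%) and 1 lower (7.69%), with a median of 0.02. Without any 1 array, 2 and 0 kept their call. Both groups of Ahr were tight, and no array of one came near the other.

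Among 25 measured genes listed as HIF targets outside glycolysis, 19 were called higher and 0 lower. Their median change was 1.92 against -0.03 over all genes. Of the 19, 18 kept their call without any 1 array, and at an unadjusted p under 0.05 the counts were again 19 and 0. The list was written with earlier results of these data known, and its highest member is Selenbp1, given above. Its counts and median are therefore descriptions and no test of the pathway. Bnip3, a mitophagy receptor of the BCL2 family, read 5.17 and 5.42 in the controls and 8.52, 8.73 and 8.77 at 1% oxygen (3.38 ± 0.16, 10.4-fold). Adm, the vessel-relaxing peptide adrenomedullin, read 4.0 and 4.25, then 7.39, 7.54 and 6.97 (3.18 ± 0.16). Vegfa, the main growth factor of blood vessels, read 5.13 and 4.93, then 7.57, 7.81 and 7.69 (2.66 ± 0.16, adjusted p = 8.7e-11). In all of them the 3 hypoxia arrays were well above both controls. Ddit4, an inhibitor of the growth kinase complex mTORC1, read 7.32 and 7.27, then 9.89, 9.73 and 9.86 (2.53 ± 0.15). Bhlhe40, a repressor that also acts in the circadian clock, rose by 2.46 ± 0.20, Ero1a, the oxidase that forms disulphide bonds in the endoplasmic reticulum, by 2.18 ± 0.10, and Mxi1, an antagonist of MYC, by 2.10 ± 0.17. Ndrg1, a stress-response gene, rose by 1.92 ± 0.13, and its further probe set by 2.18. Higd1a, a mitochondrial protein, rose by 1.85 ± 0.17 on its main probe set, but a further probe set changed by -0.02 and did not pass.

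Genes of the sensing pathway itself moved less, apart from its feedback arm. Hif1a read 9.76 and 9.80 in the controls and 9.81, 9.85 and 9.99 at 1% oxygen (0.10 ± 0.14, adjusted p = 0.76, on a probe set of a sequence family), and Epas1, which encodes HIF-2 alpha, changed by -0.01 ± 0.13 with overlapping groups. Egln1, the main prolyl hydroxylase and itself a HIF target, read 8.01 and 7.87, then 10.12, 10.05 and 10.09 (2.15 ± 0.14). Egln2, its paralogue, went the other way, from 8.12 and 8.12 to 7.56, 7.55 and 7.42 (-0.61 ± 0.11, adjusted p = 0.00033). Vhl changed by 0.41 ± 0.15 and did not pass (adjusted p = 0.071). Arnt was called at 0.52 ± 0.14, but its adjusted p was 0.17 without control array 1 and 0.089 without hypoxia array 2, and a further probe set changed by -0.07. Of the 15 measured components, 2 were higher and 2 lower, and 1 and 1 kept their call whichever array was left out.

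Other oxygen-using enzymes rose as well. Of 9 measured Jumonji demethylases, which need oxygen to remove methyl groups from histones, 5 were called higher and 0 lower in the limma fit (median 0.39), also at an unadjusted p under 0.05. Kdm3a read 7.80 and 7.84, then 9.51, 9.51 and 9.36 (1.64 ± 0.13), and Jmjd6, a related hydroxylase, read 8.49 and 8.18, then 10.14, 9.94 and 9.84 (1.64 ± 0.14). Kdm5b rose by 1.31 ± 0.16. The collagen prolyl hydroxylases P4ha2 and P4ha1 rose by 1.59 ± 0.14 and 1.27 ± 0.13, and the 3-hydroxylase P3h3 by 0.93 ± 0.15. In the list of collagen hydroxylation and oxidative folding, 4 of 13 were higher and 1 lower, with a median of -0.02.

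Glucose handling rose along most of its path. Of 22 genes measured for glucose transport and glycolysis, 14 were higher and 0 lower (median 0.50), with 15 and 1 at an unadjusted p under 0.05, and 11 kept their call without any 1 array. Slc2a1, the glucose transporter GLUT1, read 6.78 and 6.59 in the controls and 9.05, 9.07 and 8.86 at 1% oxygen (2.31 ± 0.12). Hk2, the inducible hexokinase, read 7.96 and 8.06, then 10.39, 10.36 and 10.17 (2.30 ± 0.17), although a further probe set changed by 0.05 and did not pass. Pfkp, a phosphofructokinase isoform, read 6.25 and 6.12, then 9.13, 9.26 and 9.11 (2.98 ± 0.20), with a further probe set at 2.37. The isoforms of 1 step differed in size of change: Pfkl rose by 1.53 ± 0.19 and Pfkm was called at 0.44 ± 0.12, a call lost without control array 2 (adjusted p = 0.26) or hypoxia array 1 (0.061). Aldoc rose by 1.98 ± 0.14 and Eno2 by 2.24 ± 0.18. Pgam1, the phosphoglycerate mutase, rose by 0.71 ± 0.11, Tpi1 by 0.69 ± 0.11 and Pgk1 by 0.57 ± 0.10.

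At the branch between lactate and mitochondria, the kinases that switch off pyruvate dehydrogenase rose, Pdk1 from 6.75 and 6.59 to 8.32, 8.27 and 8.35 (1.64 ± 0.13) and Pdk3 by 1.41 ± 0.18. Ldha, which makes lactate, read 11.91 and 11.84 in the controls and 12.35, 12.10 and 12.20 at 1% oxygen (0.34 ± 0.14); it did not pass (adjusted p = 0.12), although no array overlapped. Its level lay near the top of the scale of these arrays, whose highest values were 13.0 to 13.2.

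Part of the glycogen list rose. The 5 genes grouped here under glycogen synthesis were all called higher, but the grouping was made after values were seen. It therefore gives no comparison of synthesis with breakdown. Gbe1, the branching enzyme, rose from 4.43 and 4.90 to 7.04, 7.25 and 7.46 (2.58 ± 0.16). Gys1, glycogen synthase, rose from 8.49 and 8.07 to 10.77, 10.64 and 10.58 (2.39 ± 0.14). Ugp2 rose by 1.62 ± 0.13 and Pgm1 by 1.57 ± 0.10, and Pgm2 was called at 0.56 ± 0.17. The call of Pgm2 was lost without control array 1 (adjusted p = 0.10), control array 2 (0.16), hypoxia array 2 (0.064) or hypoxia array 3 (0.11). Of the 17 measured genes of glycogen metabolism, 5 were higher, 0 lower and 12 did not pass; the breakdown enzymes Pygb, Phkb and Gaa were among the latter, with changes between -0.10 and 0.10. The median over the whole list was 0.02.

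**Figure D2:**
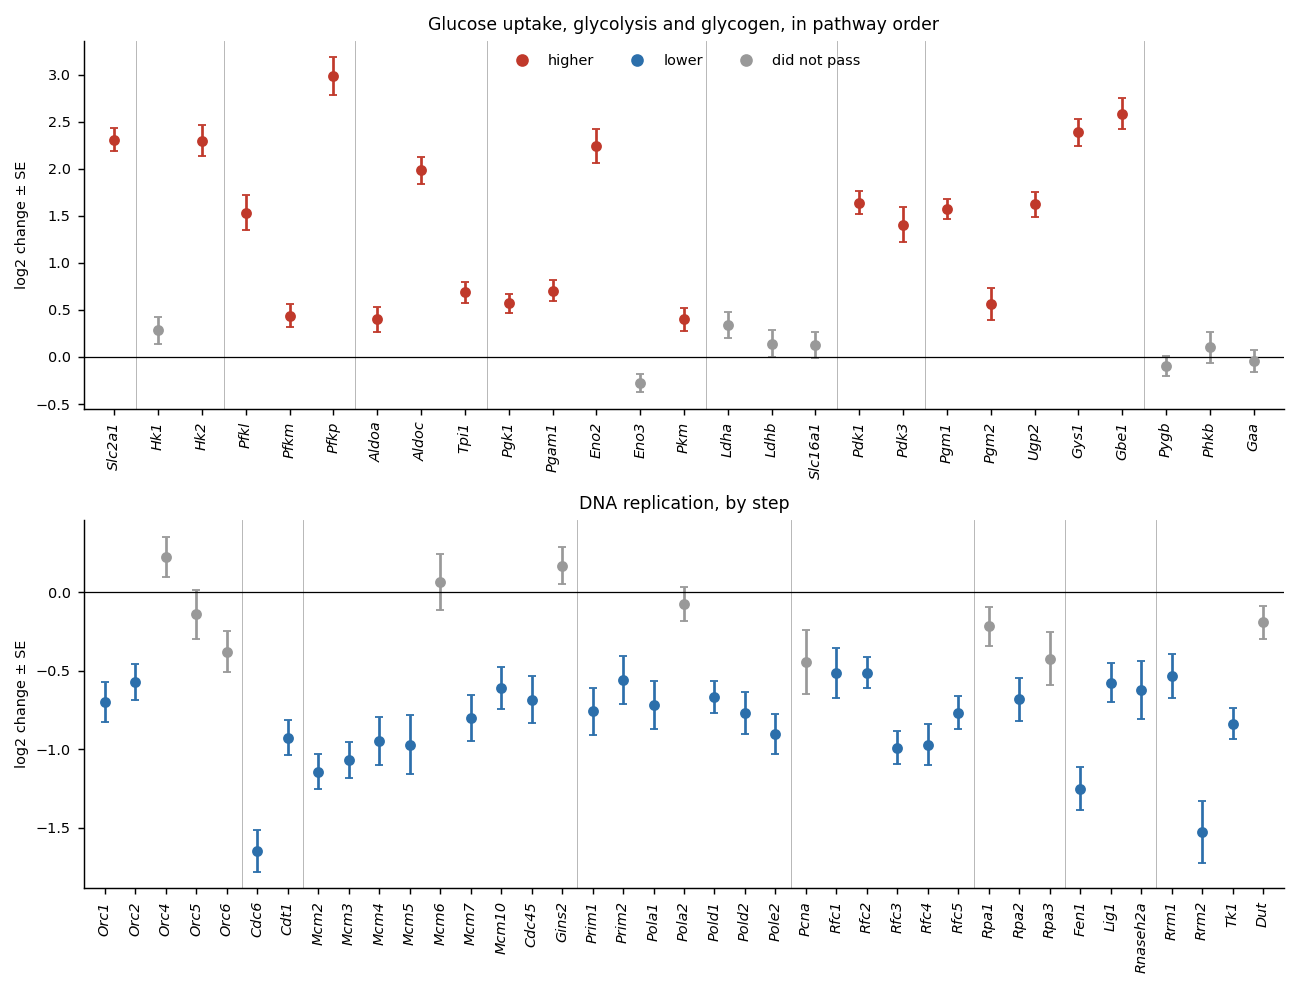
Log2 change at 1% oxygen ± SE of the limma model for genes of glucose uptake, glycolysis and glycogen in pathway order (top) and of DNA replication by step (bottom), with steps separated by vertical lines; red genes were called higher, blue lower, and grey ones did not pass. Pfkp stands highest in the upper panel at 2.98, and Cdc6 and Rrm2 lowest in the lower one at -1.65 and -1.53.

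Few genes of the mitochondrial lists were called. Of 26 genes of the tricarboxylic acid cycle and its branches, 1 was higher and 1 lower (median -0.08), the higher being Me1, cytosolic malic enzyme, at 0.91 ± 0.16. Of 59 genes of the respiratory chain and ATP synthase, 3 were higher and 0 lower (median 0.03), a smaller share than over all genes, and at an unadjusted p under 0.05 8 were higher and 3 lower; Ndufv3, a small subunit of complex I, was highest at 1.00 ± 0.24. Fasn, fatty acid synthase, fell from 9.18 and 9.04 to 7.95, 8.02 and 8.22 (-1.05 ± 0.17). Elovl6, which lengthens its products, fell by 1.26, and Cpt1a, which carries fatty acids into mitochondria, fell by 1.15. The fatty acid list as a whole was mixed, with 4 higher and 5 lower of 23, of which 1 and 4 kept their call whichever array was left out; the higher count was 2 without either control array and 1 without hypoxia array 1 or 2.

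DNA replication had the highest share of lower calls among the 43 lists: of 47 measured genes of replication and nucleotide supply, 35 were called lower and 0 higher (median -0.67 against -0.03 over all genes); at an unadjusted p under 0.05, 38 were lower and 1 higher. Without control array 1 the count was 26, and 25 kept their call whichever array was left out. Cdc6, which loads the replicative helicase on origins, read 7.75 and 7.83 in the controls and 6.11, 6.08 and 6.23 at 1% oxygen (-1.65 ± 0.13, 0.319-fold, adjusted p = 7.8e-09). Cdt1, its partner in loading, fell from 9.11 and 9.20 to 8.14, 8.29 and 8.25 (-0.93 ± 0.11). Rrm2, the regulatory subunit of ribonucleotide reductase, fell from 9.31 and 9.41 to 7.73, 7.98 and 7.79 (-1.53 ± 0.20). These loading and supply genes had no overlap between groups. Of 9 helicase genes 7 were lower, Mcm2 by most, from 9.76 and 9.62 to 8.45, 8.57 and 8.62 (-1.14 ± 0.11); Mcm3, Mcm5 and Mcm4 changed by -1.07, -0.97 and -0.95. A further probe set of Mcm5 changed by -0.11 and did not pass. Of 7 genes of primase and the polymerases 6 were lower, among them Pole2 (-0.90 ± 0.13), and of 6 genes of the sliding clamp and its loader 5, among them Rfc3, from 6.45 and 6.28 to 5.34, 5.37 and 5.41 (-0.99 ± 0.11). Fen1, which trims Okazaki fragments, fell from 6.66 and 6.92 to 5.51, 5.66 and 5.46 (-1.25 ± 0.14). Uhrf1, which guides maintenance DNA methylation, fell from 9.62 and 9.57 to 8.46, 8.60 and 8.03 (-1.23 ± 0.15).

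Fewer mitosis genes were called. Of 40 measured, 7 were lower and 2 higher (median -0.12), and without control array 1 these counts were 2 and 0. Mki67, the proliferation marker Ki-67, read 7.29 and 7.49 in the controls and 7.43, 7.58 and 7.52 at 1% oxygen (0.11 ± 0.18), and Top2a, topoisomerase II alpha, changed by -0.03 ± 0.14; in both the groups overlapped. Cdc25a, a phosphatase that opens the way into S phase and mitosis, fell from 7.64 and 7.65 to 6.81, 6.74 and 6.65 (-0.91 ± 0.11), although a further probe set changed by 0.00. Whether the 2 lists differed was not tested.

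Cdkn1a and Ccng2, which restrain the cell cycle, were higher. Cdkn1a, the inhibitor p21, read 7.12 and 7.16, then 9.06, 8.95 and 9.18 (1.92 ± 0.27), and a further probe set rose by 1.60. Ccng2 is given above. In the list of D cyclins and G1 control, 8 of 26 were higher (30.8%) and 4 lower (15.4%), against 7.55% and 7.79% over all genes. The list median was 0.08, and 3 higher and 1 lower kept their call without any 1 array. Without control array 1 the counts were 4 and 3, and without control array 2 the lower count was 2. Ccnd1, cyclin D1, changed by -0.36 ± 0.14 and did not pass. Among p53 and its targets, 6 of 21 were higher and 2 lower (median -0.03), with 3 higher without control array 1: besides Cdkn1a and Ddit4, Plk2, a polo-like kinase, rose from 6.98 and 6.97 to 9.14, 8.90 and 8.64 (1.92 ± 0.17), while Rbm38, an RNA-binding p53 target, fell from 7.34 and 7.16 to 5.87, 5.81 and 5.94 (-1.38 ± 0.11). In the MYC network 2 of 17 were higher and 5 lower (median 0.09), with 2 and 4 kept without any 1 array. The higher members were the antagonists Mxi1 and Mxd4 (Mxd4 1.21 ± 0.12). Of the lower ones, Srm, spermidine synthase and a MYC target, fell from 7.93 and 7.78 to 6.31, 6.40 and 6.38 (-1.49 ± 0.12, on a sequence family probe set); Nme1, a nucleoside diphosphate kinase also on such a probe set, changed by -0.88 ± 0.12, Cad, of pyrimidine synthesis, by -0.82 ± 0.11, Ncl, nucleolin, by -0.52 ± 0.10 and Odc1, ornithine decarboxylase, by -0.37 ± 0.11. The call of Odc1 was lost without control array 1 (adjusted p = 0.067), control array 2 (0.18), hypoxia array 2 (0.066) or hypoxia array 3 (0.058), and further probe sets of Cad and Nme1 changed by -0.08 and -0.29 and did not pass. Myc itself changed by 0.43 ± 0.15 and did not pass (adjusted p = 0.056).

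Many genes that build ribosomes fell. Of 59 measured genes of ribosome biogenesis, 27 were lower and 0 higher (median -0.38; at an unadjusted p under 0.05 34 and 0), and 17 kept their call without any 1 array. Nolc1, a nucleolar phosphoprotein, read 5.66 and 5.65 in the controls and 4.80, 4.77 and 4.85 at 1% oxygen (-0.85 ± 0.11). Utp4, of the small-subunit processome, fell from 7.58 and 7.62 to 6.61, 6.84 and 6.74 (-0.87 ± 0.16). Bop1, of the large-subunit pathway, fell by 1.28, and Nop56, of the box C/D particles, changed by -1.11 ± 0.12, but further probe sets of these genes changed by -0.08 and -0.17 and did not pass. Of 33 cytosolic ribosomal proteins 1 was called, higher, with a list median of 0.03. Among 40 translation factors 7 were lower and 1 higher (median -0.06); without control array 1 the lower count was 4.

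Genes of amino acid supply fell in part, while a pair of stress-response factors rose. Of 35 genes of the integrated stress response and amino acid supply, 15 were lower and 2 higher (median -0.28), with 10 and 2 kept without any 1 array. Slc1a5, a glutamine transporter, read 6.71 and 6.80 in the controls and 5.11, 5.39 and 5.47 at 1% oxygen (-1.43 ± 0.13). Slc7a5, a transporter of large neutral amino acids, fell from 10.72 and 10.39 to 9.43, 9.54 and 9.50 (-1.06 ± 0.12). The serine route fell too, Psph from 9.62 and 9.49 to 8.43, 8.40 and 8.55 (-1.09 ± 0.18) and Psat1 by 0.86. The 2 higher members were transcription factors: Atf3 went from 7.36 and 7.43 to 9.75, 9.73 and 9.53 (2.27 ± 0.21, sequence family probe set), and Ddit3, known as CHOP, from 8.01 and 7.89 to 9.15, 9.29 and 9.10 (1.23 ± 0.19). One further probe set of Atf3 rose by 1.72, and another changed by -0.15. Atf4, which drives this programme largely through translation of its mRNA, changed by 0.07 ± 0.18 with overlapping groups.

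Chaperone genes were lower in part. Of 32 heat shock genes 8 were lower and 2 higher (median -0.08), with 5 and 0 kept without any 1 array and 5 lower without control array 2. Hsph1, an HSP110 protein, fell from 8.69 and 8.84 to 7.66, 7.62 and 7.59 (-1.14 ± 0.15), and Fkbp4, an HSP90 partner, by 0.91. Of 24 genes of the unfolded protein response 5 were lower and 1 higher (median -0.15), 3 lower without control array 2: Creld2 and Manf, secreted on endoplasmic reticulum stress, changed by -0.86 ± 0.16 and -0.60 ± 0.13, and the higher member was again Ddit3.

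**Figure D3:**
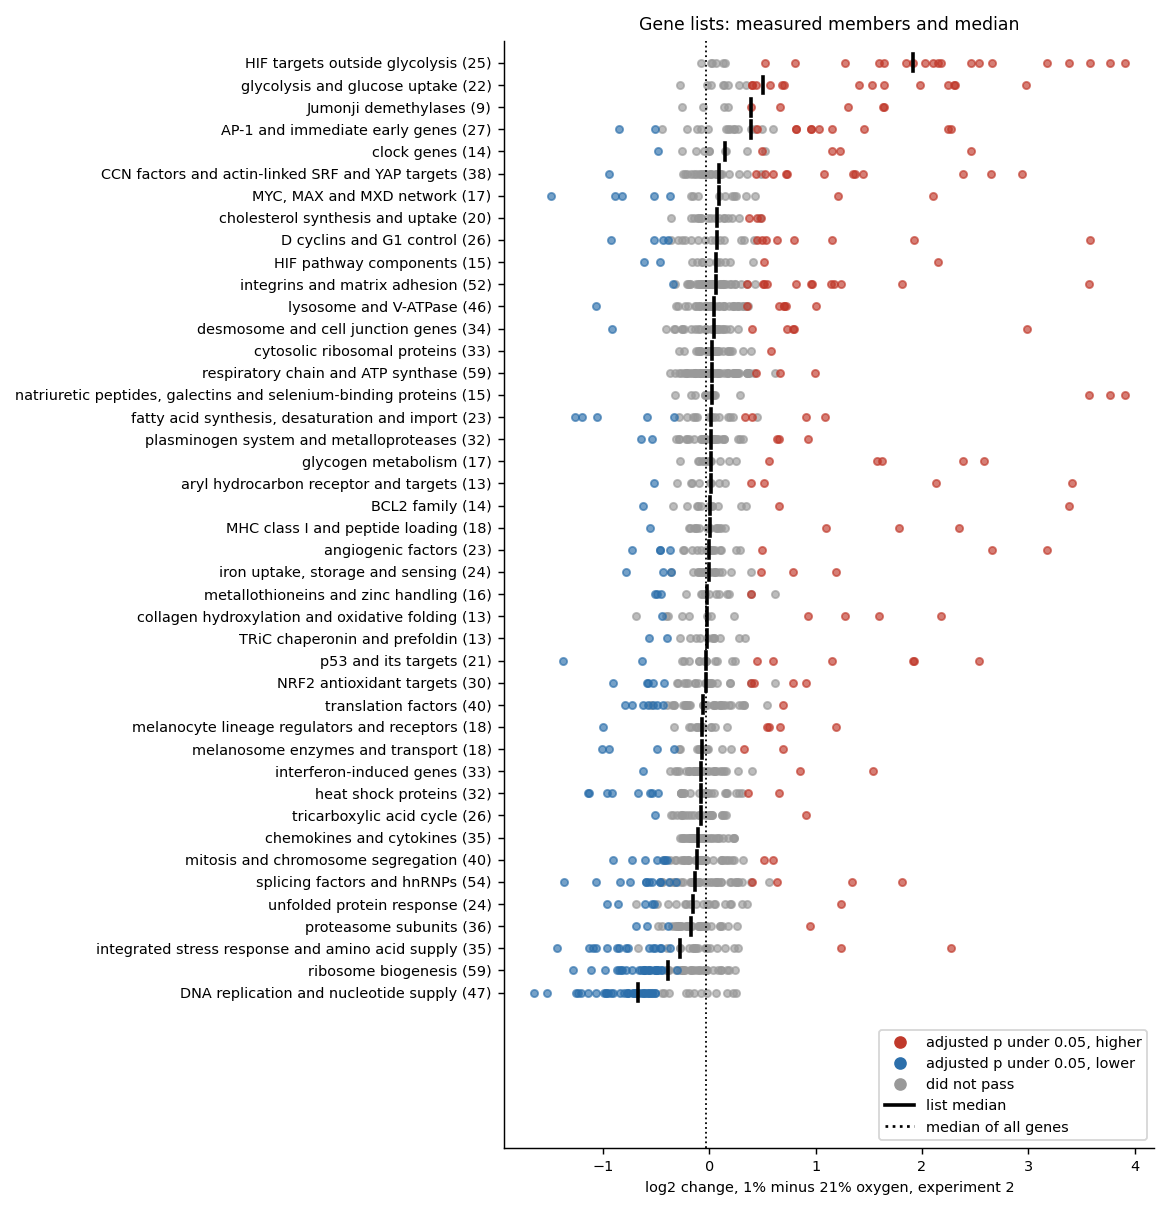
Log2 change in experiment 2 of every measured member of 43 gene lists, 1 row per list with the number measured in brackets; red members were called higher, blue lower, grey did not pass, black bars are list medians and the dotted line is the median of all genes (-0.03). The HIF targets (median 1.92) lie at the top and the replication genes (-0.67) at the bottom.

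Immediate early and cytoskeletal genes rose in part. Of 27 AP-1 and immediate early genes 10 were higher and 2 lower (median 0.39), with 7 and 1 kept without any 1 array. Ier3, an early survival gene, read 8.61 and 8.51, then 10.71, 10.85 and 10.84 (2.24 ± 0.20), and Klf6 read 7.36 and 7.38, then 8.82, 8.94 and 8.69 (1.45 ± 0.13). Jun rose by 0.95 ± 0.11 and Fosl2 by 0.96 ± 0.13, while Klf10 changed by -0.85 ± 0.15. Of 38 CCN factors and actin-linked targets 12 were higher and 1 lower (median 0.09). Vcl, vinculin of focal adhesions, read 5.86 and 6.07, then 8.93, 8.81 and 8.98 (2.94 ± 0.17), with a further probe set at 1.30. Cnn2, the actin-binding calponin 2, read 5.60 and 5.46, then 8.17, 8.13 and 8.24 (2.65 ± 0.13), and Ccn2, connective tissue growth factor, 5.11 and 5.08, then 7.50, 7.64 and 7.29 (2.38 ± 0.17). In each the groups were clearly apart.

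Of 52 integrins and matrix adhesion genes 12 were higher and 1 lower (median 0.07), with 9 and 0 kept without any 1 array; Lgals3, given above, leads this list. Itga4, the alpha-4 integrin, read 4.74 and 5.34 in the controls and 6.99, 6.90 and 6.69 at 1% oxygen (1.82 ± 0.17); a further probe set rose by 1.10 and another changed by -0.07. Bsg (basigin), a partner of lactate transporters, rose from 9.73 and 9.65 to 10.89, 11.09 and 10.81 (1.24 ± 0.19). Sparc, a matrix glycoprotein of invasive melanoma, rose by 1.17 ± 0.17, Ilk by 1.14 ± 0.15 and Fn1, fibronectin, by 0.96 ± 0.13. Pkp2, a desmosomal plaque protein, rose by 2.98 ± 0.13 on a sequence family probe set and by 2.57 on a further one, while its lowest probe set changed by 0.02. F3, the tissue factor that starts coagulation, rose from 5.54 and 5.36 to 8.04, 8.02 and 7.56 (2.43 ± 0.17).

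Pigment cell genes stayed at high levels, and their members moved in both directions. Of 13 melanocyte markers 4 lay above 9 in the controls, with Pmel highest at 12.57, and the sum of their log2 values was 104 on each control and 102 to 103 at 1% oxygen. Tyr, Tyrp1 and Dct, the enzymes of melanin synthesis, changed by -0.10 ± 0.27, -0.02 ± 0.14 and -0.11 ± 0.12, and none passed. Mitf, the master regulator of the lineage, read 5.71 and 6.01 in the controls and 7.08, 7.14 and 6.93 at 1% oxygen (1.19 ± 0.14, adjusted p = 1.8e-06). Mlph, which carries melanosomes on actin, fell from 8.76 and 8.84 to 7.69, 7.87 and 7.83 (-1.0 ± 0.13), and Gpr143, a melanosomal receptor, from 7.34 and 7.41 to 6.27, 6.49 and 6.54 (-0.94 ± 0.13). Pax3, Snai2 and Tfap2a, factors of the neural crest lineage, rose by 0.54 ± 0.12, 0.56 ± 0.12 and 0.67 ± 0.14. Of 18 lineage regulators and receptors 4 were higher and 1 lower, against 2 and 4 of 18 genes of the melanosome; without control array 1 the lower melanosome genes were 2, and without control array 2, hypoxia array 1 or hypoxia array 2 the higher ones were 1.

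Markers of other cells moved little. None of 15 fibroblast and none of 13 epithelial markers was called by limma, and none of them had an unadjusted p under 0.05. Of 10 endothelial markers Eng was called lower (-0.50 ± 0.11; adjusted p = 0.087 without control array 1), and of 17 leukocyte markers Cd68 was called higher (0.72 ± 0.21; adjusted p = 0.27 without control array 1). Median control levels of these 4 lists were 5.31, 4.11, 4.19 and 4.65, below the all-gene median of 6.00, while that of the melanocyte markers was 7.94; levels of different probe sets are compared here as descriptions only.

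Immune, metal and vessel lists differed in how many members were called, against 7.55% higher and 7.79% lower over all genes. None of 35 chemokines and cytokines was called by limma, and at an unadjusted p under 0.05 2 were higher and 1 lower. The median control level of this list was 4.14, against 6.00 over all genes, and low signals cannot be told from background. Of 33 interferon-induced genes 2 were higher and 1 lower: Isg20, an exonuclease, rose from 4.58 and 4.38 to 6.14, 5.87 and 6.04 (1.54 ± 0.15), and Gbp2 by 0.86 ± 0.13. In the MHC class I list 3 of 18 were higher and 1 lower. H2-K1 read 7.12 and 7.0, then 9.41, 9.48 and 9.35 (2.35 ± 0.15), and H2-D1 6.93 and 6.96, then 8.67, 8.88 and 8.62 (1.78 ± 0.16), both on probe sets of a sequence family, which can bind transcripts of related genes. A probe set of H2-K1 outside that family changed by -0.01. Of 16 genes of metallothioneins and zinc handling 1 was higher and 3 lower, none of which kept its call whichever array was left out, and without control array 2 or hypoxia array 3 the lower count was 0. Of 24 genes of iron uptake, storage and sensing 3 were higher and 3 lower, with 2 and 1 kept. The metallothioneins Mt1 and Mt2 changed by 0.62 ± 0.50 and 0.40 ± 0.15, and neither passed. Of 23 angiogenic factors 3 were higher and 4 lower (median 0.00), the lower count being 2 without control array 1, hypoxia array 1 or hypoxia array 3 and 1 without control array 2, and Vegfa and Adm stood far above that median. Hmox1, haem oxygenase, rose by 0.79 ± 0.13, whereas Txnrd1, which shares its regulator NRF2, fell from 8.97 and 8.90 to 7.98, 7.96 and 8.16 (-0.90 ± 0.15).

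RNA-processing genes were mixed. Of 54 splicing factors 12 were lower and 4 higher (median -0.13), without control array 1 these counts were 7 and 2, and without control array 2 the lower count was again 7. Clk4 and Clk1, kinases of splicing factors, rose from 5.18 and 5.09 to 7.23, 6.97 and 6.65 (1.81 ± 0.17) and by 1.35 ± 0.15. Srsf1, an SR protein, read 6.09 and 7.08 on the controls and 4.78, 5.28 and 5.59 at 1% oxygen (-1.37 ± 0.30); its controls stood 1 unit apart, its call was lost without control array 2 (adjusted p = 0.13), and of its further probe sets 1 changed by -1.77 while others changed by 0.04 and -0.19.

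Most of what was called in experiment 2 was also called elsewhere. Of the 623 genes called higher, 402 were called higher in experiment 1 (64.5% of this list and 64.3% of that one) and 351 in the chamber set (56.3% and 53.4%), 255 in both. Of the 643 called lower, 431 were called lower in experiment 1 (67.0% and 48.7%) and 537 in the chamber set (83.5% and 43.2%), 384 in both. All 36 genes higher by at least 2 units and 117 of the 129 higher by at least 1 were called higher in both other sets, as were all 38 lower by at least 1 called lower. Over all genes, 7.57% were called higher and 10.7% lower in experiment 1, and 7.96% and 15.1% in the chamber set. The sets share no arrays, but their tests share 1 estimate of spread for each gene. A call in 1 set and not in another does not by itself show a difference between them. Of 125 genes called higher here and not in the other sets, the limma test of the difference from their mean called 0. At an unadjusted p under 0.05 in that test, 46 had a higher effect. Of 59 genes called lower here and not in the other sets, the test called 2, Id3 and Nr4a1. Both groups of genes were picked by calls on the same arrays, which favours a difference in that direction. These counts are therefore descriptions, and a gene that was not called may still differ.

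**Figure D4:**
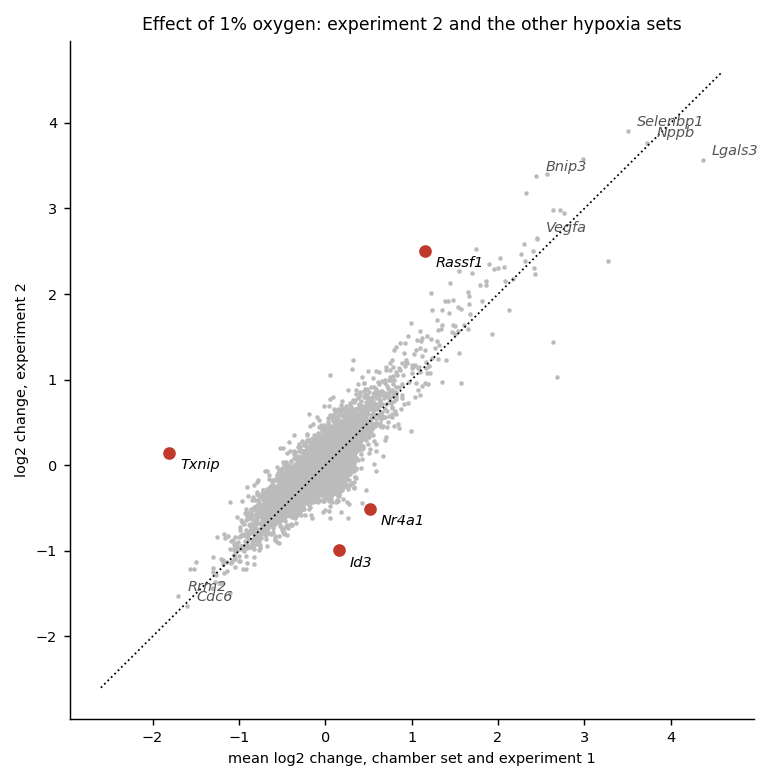
Log2 change at 1% oxygen in experiment 2 (y axis) against the mean log2 change of the chamber set and experiment 1 (x axis), 1 point per gene for 8251 genes; the dotted line marks equal change. Red points are the 4 genes whose effect differed by the test, Txnip at 0.15 and Rassf1 at 2.50 above the line, Nr4a1 at -0.51 and Id3 at -1.0 below it.

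Effects were tested for a difference between sets. Experiment 2 differed from experiment 1 in 27 genes (0.327%; 16 with a higher and 11 with a lower effect), from the chamber set in 7 (0.0848%; 5, or 0.0606%, higher and 2, or 0.0242%, lower) and from the mean of both in 4 (0.0485%), of which Txnip and Rassf1 (0.0242%) had a higher and Id3 and Nr4a1 (0.0242%) a lower effect. Device and set cannot be told apart in the comparison with the chamber. These counts depended on single arrays and on a block for replicate number, as given in the closing section, and on which arrays entered the fit.

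Txnip, which binds thioredoxin and restrains glucose uptake, gave the largest difference of the 4. In experiment 2 it read 6.83 and 6.40 in the controls and 6.96, 6.34 and 6.98 at 1% oxygen, with overlapping groups (0.15 ± 0.15, adjusted p = 0.65). In experiment 1 it went from 7.77 and 7.96 to 5.70, 5.74 and 5.71, and in the chamber set from 8.20 and 8.21 to 6.86, 6.69 and 6.66. The effect in experiment 2 was higher than the mean of the others by 1.95 ± 0.19 (adjusted p = 9.7e-06). The controls of experiment 2 lay below the other controls, at the level the chamber set had at 1% oxygen; levels across sets are a description, with no test. A further probe set of Txnip showed no such pattern, with changes of -0.06 in experiment 2, 0.04 in experiment 1 and 0.24 in the chamber set, and with the mean of both probe sets the difference from the chamber set no longer passed (adjusted p = 0.16).

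Id3, an inhibitor of basic helix-loop-helix factors, fell in experiment 2 from 6.78 and 6.74 to 6.04, 5.75 and 5.50 (-1.0 ± 0.13), whereas it read 5.22 and 5.40, then 5.51, 5.31 and 5.41 in experiment 1, and 4.89 and 4.90, then 5.18, 5.13 and 5.0 in the chamber set. Here too the controls of experiment 2 stood apart, above every other array of the hypoxia sets. The difference from the mean of the others was -1.15 ± 0.16 (adjusted p = 0.0014). With replicate number as a block in the limma fit, this difference did not pass (adjusted p = 0.21). Its relatives Id1 and Id2 fell in experiment 2 by 0.61 and 0.82; their effects did not differ by the test from the mean of the other sets (adjusted p = 0.062 and 0.78).

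Nr4a1, an orphan nuclear receptor of the immediate early class, read 7.84 and 8.06 in the controls and 7.70, 7.38 and 7.24 at 1% oxygen (-0.51 ± 0.12), a call lost without control array 2 (adjusted p = 0.11). It was called in the opposite direction in experiment 1 (0.35) and in the chamber set (0.68), where the controls read 6.65 and 6.68, and 6.71 and 6.72. The difference from their mean was -1.02 ± 0.15 (adjusted p = 0.0023) and passed with each single array left out. With replicate number as a block in the limma fit, this difference did not pass (adjusted p = 0.29). As with Id3, the controls of experiment 2 were the higher ones.

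Rassf1, a tumour suppressor that binds microtubules, rose in all 3 sets, but most in experiment 2, from 5.64 and 5.64 to 8.12, 8.30 and 7.99 (2.50 ± 0.19). In experiment 1 its controls read 6.09 and 6.86 (change 0.95) and in the chamber set 6.29 and 6.43 (change 1.36). The difference from the mean of the others was 1.34 ± 0.23 (adjusted p = 0.015). With replicate number as a block in the limma fit, it did not pass (adjusted p = 0.21). It did not pass without control array 1 of experiment 2 (adjusted p = 0.20), control array 2 (0.073), hypoxia array 1 (0.054) or 2 (0.077), or without control array 2 of the chamber set (0.064).

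**Figure D5:**
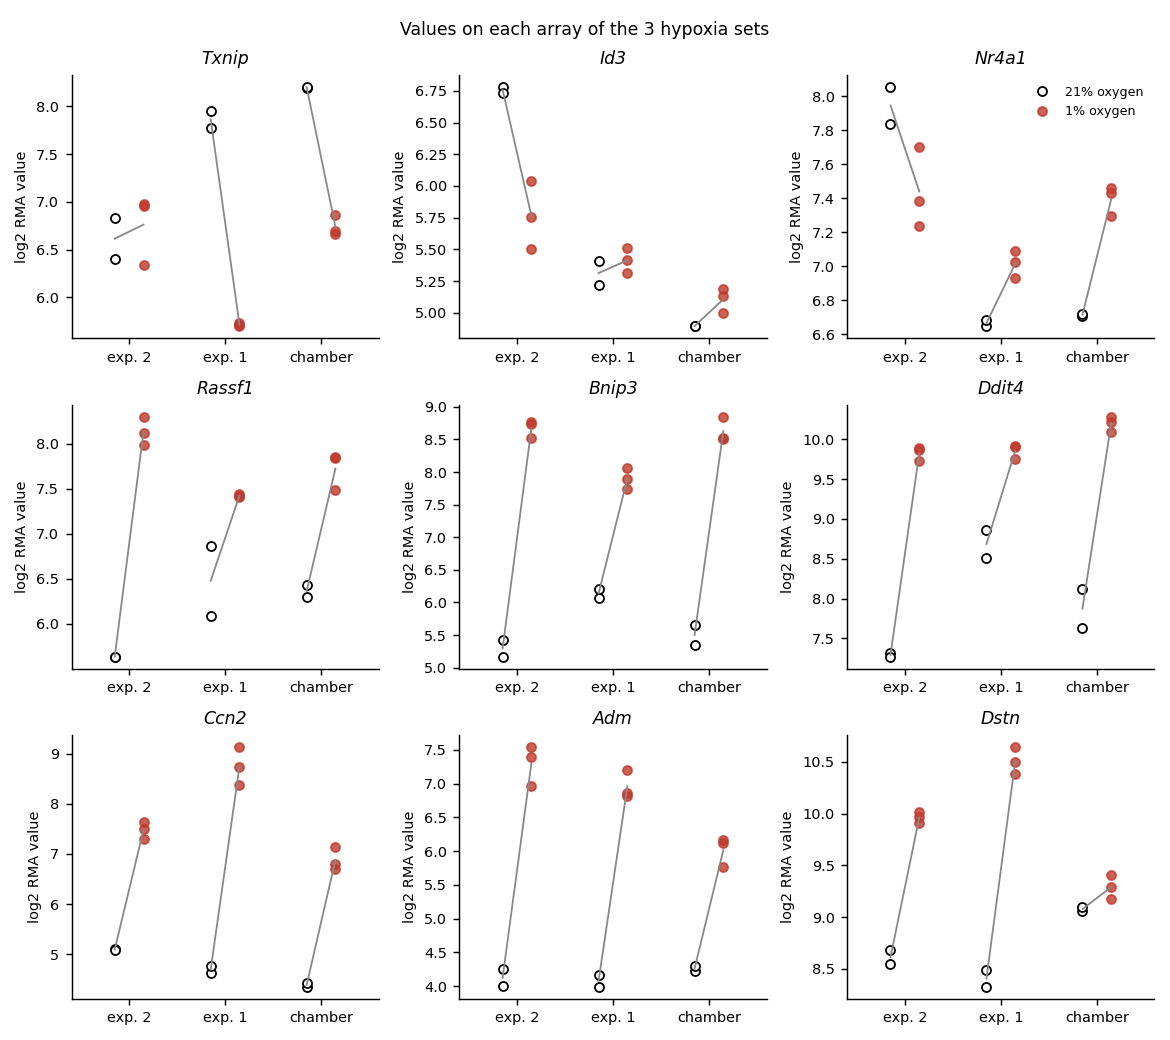
Log2 RMA values of 9 genes on every array of experiment 2, experiment 1 and the chamber set; open points are the 2 controls of a set, red points its 3 arrays at 1% oxygen, and grey lines join the means. The controls of experiment 2 lie low for Txnip, Rassf1 and Ddit4 and high for Id3, Nr4a1 and, by less, Ccn2.

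Between experiment 2 and experiment 1, which used the same kind of incubator, the size of several strong responses differed. Bnip3 rose by 3.38 here and by 1.76 there, a difference of 1.62 ± 0.23 (adjusted p = 0.0016), with controls of 5.17 and 5.42 here and 6.21 and 6.07 there. With replicate number as a block in the limma fit, that difference did not pass (adjusted p = 0.12). Ddit4 rose by 2.53 against 1.17 (difference 1.36 ± 0.22); its hypoxia arrays stood between 9.73 and 9.92 in both, and its controls at 7.32 and 7.27 here and 8.51 and 8.86 there. That difference did not pass without control array 2 of experiment 1 (adjusted p = 0.075) or with the replicate block (0.27). Ccn2 rose by 2.38 against 4.05 (difference -1.67 ± 0.24). Its hypoxia arrays read 7.29 to 7.64 here against 8.38 to 9.13 there, and its controls 5.11 and 5.08 against 4.62 and 4.77. Lcp1, the actin-bundling protein L-plastin, rose by 0.97 against 2.23 (difference -1.26 ± 0.19), and a further probe set changed by 0.23 in experiment 2. With the replicate block in the limma fit, the difference for Lcp1 did not pass (adjusted p = 0.18). Synpo, an actin-associated protein, rose here from 4.49 and 4.80 to 5.95, 5.70 and 5.44 and was called lower there (1.05 against -0.51, difference 1.56 ± 0.22).

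Against the chamber set, Adm rose by 3.18 here and 1.76 there (difference 1.42 ± 0.23, adjusted p = 0.0057), with controls of 4.0 and 4.25 against 4.22 and 4.29; the difference did not pass without control array 1 of experiment 2 (adjusted p = 0.11) or control array 2 of the chamber set (0.078). Dstn, the actin-severing protein destrin, rose from 8.55 and 8.68 to 10.01, 9.91 and 9.97 here (1.35 ± 0.12) and changed by 0.21 in the chamber, a difference of 1.14 ± 0.17 (adjusted p = 0.0029) that missed the threshold without control array 1 of experiment 2 (0.051). With replicate number as a block in the limma fit, the difference for Dstn did not pass (adjusted p = 0.13). In experiment 1 Dstn rose by 2.10.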

How the data were processed

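Each probe set had 1 log2 value per array, made by the authors with RMA and used as deposited, without further scaling. GCOS 1.2 and RMA are listed in the submitters' processing notes. Version and probe definition of RMA, and whether it was run on the 21 arrays together, are not given in the sources used. Array medians and group correlations are given above, and precision is limited by 2 control and 3 hypoxia arrays.

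Samples were grouped by their titles. Of 12488 probe sets, 66 controls and 396 assigned to several genes were left out, as were those without a gene in the annotation used here; of the 10833 kept, 10817 took their current symbol through the Entrez identifier. The probe set with the highest mean over all arrays stood for a gene (2073 genes had several), and sequence family sets stood for 395 genes. Of 453 further probe sets of called genes, 127 were called in the same direction, 0 in the opposite one, and 326 were not called.

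The linear model held 1 mean for each of 9 groups and used the 21 arrays together (limma 3.58.1, R 4.3.3; 12 residual degrees of freedom, 20.9 after moderation), checked on simulated data. Tests were two-sided with Benjamini-Hochberg adjustment over 8251 genes. Differences between sets were contrasts of the same model. Gene lists are described by counts and medians, with no set test. No 2 arrays were identical.

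Genes were named by rule: the 18 highest and 18 lowest changes called without overlap, up to 8 per direction for each difference between sets, up to 8 per list by size of change, and a fixed set that included Hif1a, Epas1, Ldha, Mki67, Myc and Txnip; Mocs2, Uso1, Xbp1, Top2a, Atf4, Id1, Id2 and genes shown for a step of a pathway were added after their values were seen. The members and lists were chosen with earlier results of these data known. Alternatives were other scalings, filters, probe set rules and moderation, array weights, a replicate block, fewer arrays in the fit and each array left out. Same-numbered arrays of experiment 2 deviated together at correlations of 0.235 and 0.0273. The main fit did not take the numbers as pairs, although these values cannot exclude pairing.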

Additional observations from a re-analysis of the deposited data

Results flagged for a closer look

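The effect of 1% oxygen differed by the limma test of the difference between experiment 2 and another hypoxia set for the values that follow, in log2 units; each is the change in experiment 2 minus the change in the other set.

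Against the mean of experiment 1 and the chamber set, the effect was higher for Txnip (1.95) and Rassf1 (1.34) and lower for Id3 (-1.15) and Nr4a1 (-1.02).

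Against experiment 1, the 8 largest higher effects were those of Txnip (2.30), Bnip3 (1.62), Synpo (1.56), Rassf1 (1.55), Ddit4 (1.36), Pcyox1 (1.16), Adssl1 (1.11) and Mxd4 (0.98). The 8 largest lower effects were those of Ccn2 (-1.67), Ccn1 (-1.51), Srxn1 (-1.34), Lcp1 (-1.26), Id3 (-1.10), Gadd45a (-0.97), Gja1 (-0.96) and Srm (-0.94). In experiment 2 itself, Srxn1 changed by -0.29 (adjusted p = 0.31) and Pcyox1 by 0.20 (adjusted p = 0.50) and neither was called, whereas in experiment 1 they changed by 1.05 and -0.96. Of these 16, the differences for Txnip, Bnip3, Synpo, Ccn2 and Lcp1 passed with each single array left out, and each of the others was lost without 1 or more arrays. With replicate number as a block in the limma fit, the differences for Bnip3 and Lcp1 did not pass (adjusted p = 0.12 and 0.18).

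Against the chamber set, the effect was higher for Txnip (1.61), Adm (1.42), Klf7 (1.16), Dstn (1.14) and Snhg1 (1.01) and lower for Id3 (-1.21) and Nr4a1 (-1.19). Txnip and Nr4a1 passed with each single array left out, but with replicate number as a block in the limma fit Nr4a1 did not pass (adjusted p = 0.19). Snhg1 fell in both sets, by 0.61 here (a call lost without control array 2, adjusted p = 0.064), and its difference was lost with each of the 10 arrays left out in turn (adjusted p from 0.060 to 0.44). Klf7 rose from 5.31 and 5.29 to 7.41, 7.46 and 7.05 in experiment 2, and its difference was lost without 6 of the 10 arrays, with an adjusted p of 0.31 without control array 2 of the chamber set.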

How the results depend on the processing

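The 1266 calls of experiment 2 kept their sign under every alternative that tested them. For 1263 of them leaving out an array could not change the sign, because all hypoxia arrays lay on 1 side of both controls. With replicate number as a block, 802 of the 1266 were still called. The filter on low levels left 1083 of the 1266 to test. The count was 1223 with median centring, 1316 with quantile normalisation, 1183 without genes under the 40th percentile of level, 1225 with the mean of probe sets, 1273 with trend and robust moderation, 1758 with array weights, 1858 on the 15 arrays of the hypoxia sets and 1653 on the 5 arrays of experiment 2. With 1 array of experiment 2 left out it was 723 to 1091. Median centring moved the median change of all genes from -0.030 to -0.024, and quantile normalisation to -0.022.

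Counts of differences between sets were less stable. With array weights they were 123 against experiment 1, 667 against the chamber set and 25 against the mean of both; on the 15 arrays of the hypoxia sets they were 138, 149 and 16. With 1 array left out they were 8 to 29, 2 to 9 and 3 to 10. The lowest counts came without control array 2 of experiment 1 (8) and without control array 1 of experiment 2 (2), and the 10 without control array 2 of experiment 2. The cause of these shifts was not tested.

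With replicate number as a block, 813 genes were called in experiment 2, and the differences between sets numbered 3, 2 and 1. Same-numbered arrays of the chamber set and experiment 1 deviated together at correlations of -0.108 to 0.0144. Those of experiment 2 did so at 0.235 and 0.0273. With 2 controls per set, whose deviations mirror each other, these values cannot settle whether the numbers pair the samples.

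List medians moved by more than the spread between the hypoxia arrays in 75 of 240 cases with 1 array left out and in 61 of 432 with other alternatives. Median SD over genes was 0.093 in the controls and 0.092 at 1% oxygen, against 0.18 and 0.13 in the cobalt chloride groups. All arrays of the cobalt chloride set, controls included, enter the shared estimate of spread. The Actb difference, given above as a measure of RNA quality, was 1.41 and 1.62 on the controls of that set. It was 2.36 and 2.16 at 100 μM and 1.47 and 0.50 at 200 μM, against 0.22 to 0.43 in experiment 2. Counts without that set are those given above for the hypoxia sets alone. Whether RNA quality affected the shared estimate was not tested. Low signals cannot be told from background in RMA values.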

Other observations

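Further members of the lists, not described above, were called in experiment 2 and kept their call whichever of the 5 arrays was left out. Tpm4, tropomyosin 4 of actin filaments, read 8.95 and 8.96 in the controls and 10.32, 10.26 and 10.39 at 1% oxygen, a change of 1.37 ± 0.11. Mcam, the melanoma cell adhesion molecule, went from 7.93 and 7.93 to 8.98, 9.02 and 8.70 (0.97 ± 0.15), and Itga5, the fibronectin receptor subunit, from 5.58 and 5.55 to 6.26, 6.50 and 6.39 (0.82 ± 0.13). Plat, tissue plasminogen activator, rose by 0.93 ± 0.13. In each of these every hypoxia array lay above both controls.

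Among enzymes of the lysosome, Ctsa, cathepsin A, rose from 8.03 and 7.81 to 8.92, 8.99 and 8.85 (1.00 ± 0.12). Gusb, beta-glucuronidase, fell from 7.83 and 7.98 to 6.73, 6.88 and 6.91 (-1.07 ± 0.17). Of 46 lysosomal genes 6 were higher (13%) and 1, Gusb, lower (2.17%), against 7.55% and 7.79% over all genes. Cp, the ferroxidase ceruloplasmin, rose from 4.70 and 4.88 to 6.10, 6.02 and 5.82 (1.19 ± 0.14), and Alad, an enzyme of haem synthesis, fell from 7.47 and 7.62 to 6.78, 6.67 and 6.85 (-0.78 ± 0.11). Tfrc, the transferrin receptor, changed by -0.36 ± 0.15 and did not pass (adjusted p = 0.11). The proteasome subunit Psmd8 rose by 0.95 ± 0.12. Of 36 subunits 3 were called lower (8.33%, against 7.79% over all genes), and 1 without either control array or without hypoxia array 2.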
